A study of Rattus norvegicus with 72 samples.

Results

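The 35 genes described here encode the machinery that a cell uses against misfolded protein in the endoplasmic reticulum and against a shortage of amino acids. They were chosen by symbol, and each was represented by the probe set that is annotated to that symbol alone and was brightest over all arrays. Of the 35 genes 34 were found in this way among 14217 named genes, all 34 lay above the filter on dim genes, and Ern1, the sensor kinase that splices Xbp1 mRNA, was not analysed here. The 34 fell into 16 genes of the Atf4 arm, 16 genes of the chaperone arm and 2 stress sensors, Eif2ak3 and Atf6. The arrays measured total RNA of rat dorsal root ganglia, the clusters of sensory nerve cells that send their fibres into the sciatic nerve. The question was how these ganglia respond to a crush of the nerve far from the cell body. All groups were Wistar rats between 8 and 12 weeks of age, and the ganglia were those at lumbar levels L4 and L5. The 29 distal arrays followed a lesion labelled distal, the 22 proximal arrays followed a lesion labelled proximal, and the 21 sham arrays came from sham rats. Every lesion had arrays from 8 times between 1 and 28 h. The early window (1, 3 and 8 h) held 12 distal, 9 proximal and 9 sham arrays, the late window (18, 24 and 28 h) held as many of each, and 12 and 16 h held 5 distal, 4 proximal and 3 sham arrays. The labels do not say whether an array is a separate animal or a pool, so each p-value speaks only of how far these arrays scatter, which may be technical, and precision is limited by how many there were.

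In the unfolded protein response, sensor proteins span the membrane of the endoplasmic reticulum, and chaperones such as Hspa5 hold them inactive until misfolded protein draws the chaperones away. Atf6 and spliced Xbp1 switch on chaperones, folding enzymes and the degradation of misfolded protein (the chaperone arm), whereas the kinase Eif2ak3, also called PERK, phosphorylates a translation initiation factor and lets Atf4 be translated. Other kinases that sense amino acid shortage, double-stranded RNA or lack of heme act on the same factor, so the targets of Atf4 (amino acid transporters, serine synthesis enzymes, Ddit3, Trib3 and Chac1) can be switched on without the chaperone arm. Atf4 targets are known from axon injury in mice, where they have been tied to a kinase of the injured axon.

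The upstream sequences of both arms are shown because the arms carry different known motifs. RefSeq promoters of assembly GRCr8, from 250 bases before to 50 bases after the start of a gene, were at hand for 30 of the 34 genes, and for 33469 promoters of all kinds. The endoplasmic reticulum stress element, searched on both strands as CCAAT and CCACG with any 9 bases between them, was found in 7 of the 13 chaperone arm promoters (Calr, Canx, Creld2, Dnajc3, Hsp90b1, Hspa5 and Xbp1), in 0 of the 16 Atf4 arm promoters and in 0.0657% of all promoters. The second form of that element, ATTGG and CCACG with any 1 base between them, was found in Herpud1 and in 0.0508% of all promoters. The core of the composite element that Atf4 binds, TTNCATCA, was found in 4 of 16 Atf4 arm promoters (Chac1, Nupr1, Slc7a1 and Trib3), in 1 of 13 chaperone arm promoters (Herpud1) and in 3.98% of all promoters. The cyclic AMP response element TGACGTCA was found in Ppp1r15a and in 1.83% of all promoters, and TGACGTGG, a site of spliced Xbp1, in 0 of the 30 and in 0.595% of all promoters. None of these motifs overlapped another in the same promoter. A match is a description of letters, not a shown binding site. Below, 2 promoters of the Atf4 arm with the composite core in capitals, 2 of the chaperone arm with the stress element in capitals, and Herpud1 with both kinds of motif in capitals are written 5′ to 3′ on the strand of the gene.
Chac1, chr3:126795881-126796180, plus strand: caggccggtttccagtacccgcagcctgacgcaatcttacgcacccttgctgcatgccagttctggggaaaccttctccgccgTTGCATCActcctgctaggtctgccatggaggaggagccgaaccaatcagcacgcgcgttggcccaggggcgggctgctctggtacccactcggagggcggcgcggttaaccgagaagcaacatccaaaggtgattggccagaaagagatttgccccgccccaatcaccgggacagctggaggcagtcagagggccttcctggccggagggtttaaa
Trib3, chr3:161275484-161275783, minus strand: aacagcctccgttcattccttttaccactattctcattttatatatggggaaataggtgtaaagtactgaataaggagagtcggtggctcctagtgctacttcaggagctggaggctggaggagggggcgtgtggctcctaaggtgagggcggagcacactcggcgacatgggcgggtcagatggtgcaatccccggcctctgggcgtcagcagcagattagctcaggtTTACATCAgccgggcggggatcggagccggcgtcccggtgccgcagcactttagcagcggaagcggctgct
Hspa5, chr3:38452766-38453065, plus strand: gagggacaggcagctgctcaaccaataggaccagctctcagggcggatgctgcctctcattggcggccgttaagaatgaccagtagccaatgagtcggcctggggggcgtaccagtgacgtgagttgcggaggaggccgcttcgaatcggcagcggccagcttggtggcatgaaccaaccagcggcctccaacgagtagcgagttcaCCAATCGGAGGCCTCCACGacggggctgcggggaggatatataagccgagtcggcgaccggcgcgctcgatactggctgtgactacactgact
Hsp90b1, chr7:23012244-23012543, minus strand: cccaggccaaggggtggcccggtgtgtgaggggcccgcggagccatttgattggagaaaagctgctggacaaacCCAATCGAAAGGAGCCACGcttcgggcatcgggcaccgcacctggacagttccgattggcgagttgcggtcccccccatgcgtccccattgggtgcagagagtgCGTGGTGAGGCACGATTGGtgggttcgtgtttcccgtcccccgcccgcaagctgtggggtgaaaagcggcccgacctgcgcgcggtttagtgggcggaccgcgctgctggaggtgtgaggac
Herpud1, chr19:10614658-10614957, minus strand: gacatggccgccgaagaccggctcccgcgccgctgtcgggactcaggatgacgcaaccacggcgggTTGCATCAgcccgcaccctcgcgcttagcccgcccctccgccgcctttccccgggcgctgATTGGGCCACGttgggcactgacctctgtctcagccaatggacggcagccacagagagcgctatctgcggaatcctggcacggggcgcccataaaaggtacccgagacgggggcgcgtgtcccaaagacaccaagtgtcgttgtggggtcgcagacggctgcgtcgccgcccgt
Chac1 encodes an enzyme that degrades glutathione, and Trib3 a pseudokinase that curbs Atf4 and Ddit3. Hspa5 encodes BiP, the main chaperone of the endoplasmic reticulum, Hsp90b1 its HSP90 chaperone Grp94, and Herpud1 a membrane protein of the degradation pathway. The tabulated start of Herpud1 lay inside its annotated gene span (chr19:10604360-10624168).

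Some markers of the tissue were bright and others dim. The neurofilament gene Nefl averaged 14.0 and Prph, for peripherin, 13.4 in log2 intensity over all 72 arrays, and of the satellite glia markers the brightest were Apoe (13.9) and S100b (13.5). The dimmest of these lists were the sensory neuron marker Pou4f1 (7.71) and the satellite glia marker Kcnj10 (5.08), which lay below the filter. The Schwann cell markers Pmp22 and Mbp averaged 14.1 and 13.7. In their dim probe sets the arrays grouped 4 ways, as was noticed once the data had been looked at, and these groupings are named technical sets A, B, C and D. Set A held 27 distal arrays only, set B 1 distal, 4 proximal and 4 sham arrays, set C 9 proximal and 9 sham arrays, and set D 1 distal, 9 proximal and 8 sham arrays. Apart from 16 h, which had 1 sham array, the sets that held the proximal arrays of an hour also held its sham arrays. Nearly all distal arrays stood apart from sham, and the hours of the proximal lesion and of sham were spread over sets B, C and D. The comparison of proximal with sham arrays at the same hour is therefore given first, the changes over time within a set after it, and distal against sham last.

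In the late window after the proximal lesion, 9 of the 34 genes were higher than after sham and 0 were lower (limma, Benjamini-Hochberg adjusted over 12276 genes, threshold 0.05). Of all genes tested, 5.35% were higher and 4.36% lower. The Atf4 arm gave 7 of the 9 calls, among its 16 genes: Atf4, Trib3, Chac1, Ppp1r15a, Sesn2, Slc3a2 and Slc7a5. The chaperone arm gave 1 of 16, Dnajb9, and the sensors 1 of 2, Eif2ak3. The median log2 difference was 0.29 in the Atf4 arm, 0.047 in the chaperone arm and -0.016 over all genes tested, and 27 of the 34 differences were above 0. In a whole ganglion, fewer cells of a type and less RNA per cell cannot be told apart.

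**Figure D1:**
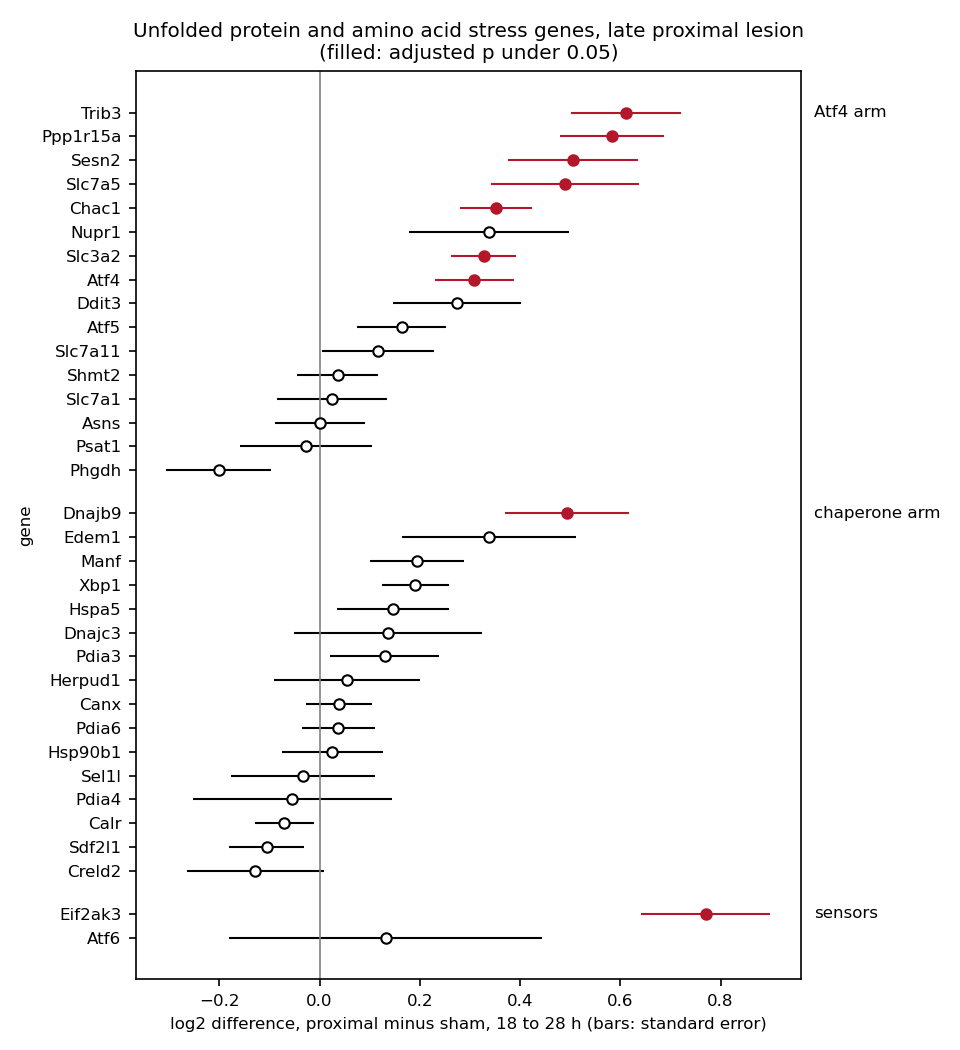
Log2 difference, proximal minus sham, averaged over 18, 24 and 28 h, for each of the 34 genes by arm, with standard errors; filled points had an adjusted p under 0.05. The 9 filled points lie between 0.31 and 0.77, 7 of them in the Atf4 arm, while most chaperone arm genes lie near 0.

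Eif2ak3, the sensor kinase upstream of Atf4 (chr4:104363838-104425271), had a lowest, median and highest log2 intensity of 9.06, 9.56 and 10.08 in the 9 late proximal arrays, against 8.48, 8.84 and 9.02 in the 9 late sham arrays. It was the only one of the 34 genes in which every late proximal array lay above every late sham array, as did 0.880% of all genes tested. It was 1.71-fold higher (log2 difference 0.77, SE 0.13, adjusted p = 1.34e-05). Atf4, the transcription factor whose translation rises under stress (chr7:113684681-113686739), had log2 intensities of 12.09, 12.38 and 12.48 (lowest, median, highest) in late proximal arrays, against 11.71, 12.02 and 12.25 in late sham arrays. Its groups overlapped, with 6 of 9 proximal arrays above the highest sham array, and it was 1.24-fold higher (log2 0.31, SE 0.08, adjusted p = 0.0047). Its mRNA does not show how much protein was made.

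Trib3 and Ppp1r15a, targets of Atf4 that dampen stress signalling, were higher as well, and so was the Atf4 target Chac1. Trib3 had log2 intensities of 6.59, 7.11 and 7.39 (lowest, median, highest) in late proximal arrays, against 6.26, 6.46 and 6.62 in late sham arrays. Only 1 proximal array lay below the highest sham array, and Trib3 was 1.53-fold higher (log2 0.61, SE 0.11, adjusted p = 4.53e-05). Its other 2 probe sets differed by 0.39 and 0.56, but their means of 5.21 and 4.77 lay below the filter on dim genes. Ppp1r15a, the phosphatase subunit GADD34 that reverses the phosphorylation by Eif2ak3 (chr1:105136521-105139596), had log2 intensities of 9.10, 9.92 and 10.20 in late proximal arrays, against 8.98, 9.20 and 9.74 in late sham arrays. Here 7 of 9 proximal arrays lay above the highest sham array, and the gene was higher (log2 0.58, SE 0.10, adjusted p = 3.59e-05). Chac1 had log2 intensities of 9.30, 9.87 and 10.09 in late proximal arrays, against 9.28, 9.41 and 9.88 in late sham arrays. It was 1.28-fold higher (log2 0.35, SE 0.07, adjusted p = 0.00035), with 4 of 9 proximal arrays above the highest sham array, which was sham 24 h c.

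The transporter genes for large neutral amino acids were called together. Slc3a2 encodes the heavy chain and Slc7a5 a light chain (LAT1) of the same transporter. Slc3a2 (chr1:215033601-215048064) had log2 intensities of 11.21, 11.67 and 11.91 (lowest, median, highest) in late proximal arrays, against 11.07, 11.29 and 11.53 in late sham arrays, and was 1.25-fold higher (log2 0.33, SE 0.06, adjusted p = 0.0002). Slc7a5 (chr19:66843808-66872412) had 8.74, 10.00 and 10.16 in late proximal arrays, against 8.91, 9.26 and 9.88 in late sham arrays, and was 1.40-fold higher (log2 0.49, SE 0.15, adjusted p = 0.0217). In both genes 6 of 9 proximal arrays lay above every late sham array. The cystine transporter gene Slc7a11, another light chain (log2 0.12, SE 0.11, adjusted p = 0.656), and Slc7a1, for a transporter of cationic amino acids (0.02, SE 0.11, adjusted p = 0.951), were not called. Sesn2, for a sensor of leucine that restrains mTORC1, had log2 intensities of 7.22, 7.80 and 8.38 in late proximal arrays, against 6.78, 7.25 and 7.83 in late sham arrays. It was 1.42-fold higher (log2 0.51, SE 0.13, adjusted p = 0.00561), but its other, dimmer probe set differed by -0.0062 (SE 0.13).

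The synthesis genes of the Atf4 arm did not take part in these calls. Asns, for asparagine synthetase and a classical Atf4 target, differed by 0.0011 (SE 0.09, adjusted p = 0.997). Of the serine pathway, Phgdh, its first enzyme, differed by -0.20 (SE 0.10, adjusted p = 0.269), Psat1 by -0.03 (SE 0.13) and Shmt2, which passes on the carbon of serine in mitochondria, by 0.04 (SE 0.08). The transcription factor genes Ddit3, for CHOP (0.27, SE 0.13, adjusted p = 0.201), and Atf5 (0.16, SE 0.09, adjusted p = 0.302), and Nupr1, for a stress-induced chromatin protein (0.34, SE 0.16, adjusted p = 0.21), had positive differences and were not called. All 9 late proximal arrays lay above the sham median in Ddit3, 8 in Atf5 and 7 in Nupr1, but 1 of 9 in Phgdh.

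**Figure D2:**
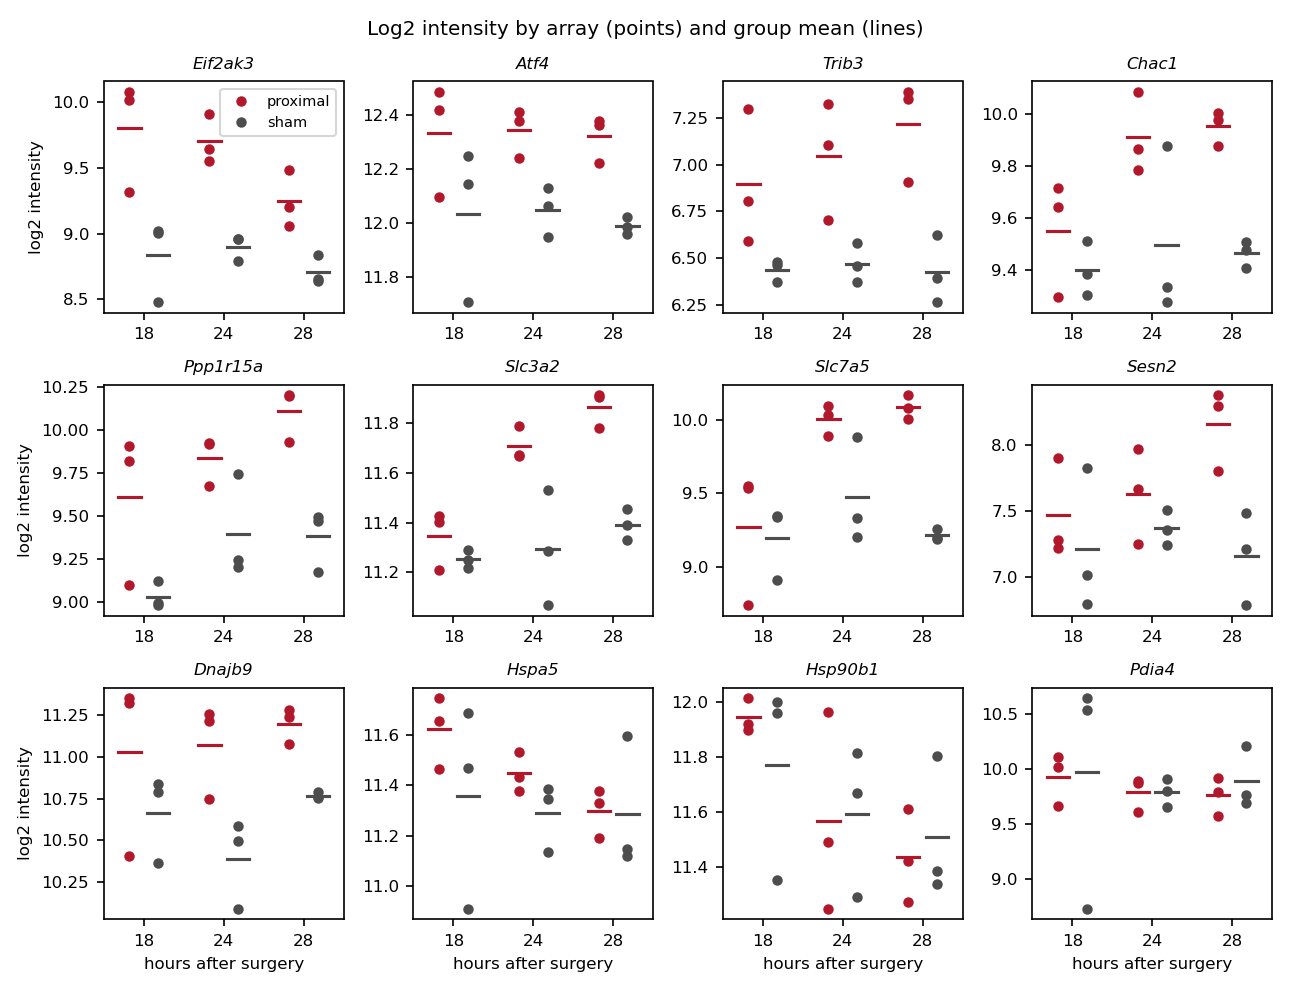
Log2 intensity of 12 genes in each proximal and sham array at 18, 24 and 28 h (points) with group means (lines); the vertical axes differ between genes. Proximal arrays lie above sham arrays in Eif2ak3 at every late hour, and in Hspa5, Hsp90b1 and Pdia4 the arrays of both groups overlap at all 3 hours.

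In the chaperone arm the called gene was Dnajb9, for the Hspa5 co-chaperone ERdj4 (chr6:66997842-67007371). Its log2 intensities were 10.41, 11.24 and 11.35 (lowest, median, highest) in late proximal arrays, against 10.09, 10.75 and 10.84 in late sham arrays, with 7 of 9 proximal arrays above the highest sham array. It was 1.41-fold higher (log2 0.49, SE 0.12, adjusted p = 0.00427). The low proximal array of the late window was 18 h c, at 10.41, beside sham 18 h c at 10.36. Hspa5, the most studied target of this arm, had log2 intensities of 11.19, 11.43 and 11.75 in late proximal arrays, against 10.91, 11.35 and 11.69 in late sham arrays, and was not called (log2 0.15, SE 0.11, adjusted p = 0.535). Hsp90b1 (0.02, SE 0.10) and the lectin chaperone genes Canx (0.04, SE 0.07) and Calr (-0.07, SE 0.06) lay near 0.

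The disulfide isomerase genes Pdia3, Pdia4 and Pdia6 differed by 0.13, -0.05 and 0.04 (SE 0.11, 0.20 and 0.07). Among the remaining genes of the arm, Xbp1 came nearest to the threshold (log2 0.19, SE 0.07, adjusted p = 0.0608). Its log2 intensities were 10.78, 10.88 and 11.23 (lowest, median, highest) in late proximal arrays, against 10.51, 10.76 and 10.86 in late sham arrays, and all 9 proximal arrays lay above the sham median. A probe set for the whole gene does not show splicing by Ern1. Manf, a secreted survival factor of the reticulum (0.19, SE 0.09), Edem1, which sends misfolded glycoproteins to degradation (0.34, SE 0.17), and Dnajc3, which encodes the co-chaperone P58IPK (0.14, SE 0.19), were not called. Herpud1 (0.05), Sel1l for a subunit of the degradation complex (-0.03), Creld2 (-0.13) and Sdf2l1 (-0.11) were not called either. Atf6, the sensor that is cleaved to a transcription factor, differed by 0.13 (SE 0.31, adjusted p = 0.901).

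These calls were not equally firm. Chac1, Eif2ak3, Ppp1r15a, Slc3a2 and Trib3 were called under every alternative in which they were tested. Without proximal 28 h b and c the count fell to 5 of 34, and the share of all genes was not taken for that fit. Atf4 (0.28, adjusted p = 0.0757), Dnajb9 (0.45, adjusted p = 0.0623), Sesn2 (0.39, adjusted p = 0.161) and Slc7a5 (0.52, adjusted p = 0.0811) were then not called (limma). In those 2 arrays the granulocyte gene S100a9 had log2 intensities of 8.95 and 9.30, against 5.73 to 6.67 in the other 7 late proximal arrays and 5.44 to 6.47 in the late sham arrays. The mean over 16 macrophage markers was 8.73 and 8.80 in the same arrays, and lay between 7.79 and 8.80 in all late proximal arrays, against 7.35 to 8.10 in late sham arrays, with 10 of 16 markers higher. Of 4 neutrophil markers on the array 2 were dimmer than the filter, and their list mean lay between 5.21 and 6.91 in late proximal arrays, against 5.20 to 5.63 in late sham arrays. Without 28 h b and c the macrophage mean still lay between 7.79 and 8.21 in late proximal arrays. The part of immune cells in the calls was not tested. Of 12 lymphocyte and plasma cell markers on the array 4 were dimmer than the filter, and 0 of the 8 tested were called. Sensory neuron markers had 0 of 17 higher and 2 lower (Scn10a and Trpv1). With technical set as a block the 9 were called again together with Ddit3, Edem1, Manf and Xbp1, which made 13, where 9.58% of all genes were higher.

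Sorted by hour, the calls fell on different genes at different times. Over the 8 hours 9 calls were made in the comparison of proximal with sham arrays. No gene was called at 1, 3, 12 or 16 h, where 0%, 0%, 0.0326% and 0.0489% of all genes were called and 1, 2, 5 and 1 of the 34 had an unadjusted p under 0.05. Ppp1r15a was the earliest, at 8 h (1.66% of all genes higher), with log2 intensities of 9.13, 9.04 and 9.08 in proximal arrays, against 8.36, 8.39 and 8.49 in sham arrays (difference 0.67, SE 0.18, adjusted p = 0.0393), and this call was lost when any 1 of these 6 arrays was left out. Eif2ak3 was called at 18 h (1.22% of all genes higher), with 10.02, 10.08 and 9.32 in proximal arrays, against 8.48 to 9.02 in sham arrays (0.97, SE 0.22, adjusted p = 0.00788). Its difference was 0.80 at 24 h (adjusted p = 0.0571) and 0.54 at 28 h (adjusted p = 0.235), although no array of either hour overlapped.

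At 24 h Slc3a2 was called (0.969% of all genes higher), with log2 intensities of 11.67, 11.79 and 11.67 in proximal arrays, against 11.29, 11.07 and 11.53 in sham arrays (0.41, SE 0.11, adjusted p = 0.0424). At 28 h 6 genes were called, all of the Atf4 arm, where 3.08% of all genes were higher. They were Sesn2 (1.00, SE 0.23), Slc7a5 (0.87, SE 0.26), Trib3 (0.79, SE 0.19), Ppp1r15a (0.73, SE 0.18), Chac1 (0.49, SE 0.12) and Slc3a2 (0.47, SE 0.11), with adjusted p between 0.0025 and 0.0348. Slc7a5 had log2 intensities of 10.16, 10.00 and 10.08 in proximal 28 h arrays, against 9.19, 9.26 and 9.20 in sham 28 h arrays, a gap wider than either group. At that hour the arrays of 15 of the 34 genes did not overlap with proximal higher, Atf4, Dnajb9 and Eif2ak3 among them, as in 11.8% of all genes. Those of Phgdh did not overlap with proximal lower, as in 21.0% of all genes. Leaving out proximal 28 h b or c lowered the 9 calls over all hours to 5. Of the 9 only that of Slc3a2 at 28 h held whichever single array was left out.

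**Figure D3:**
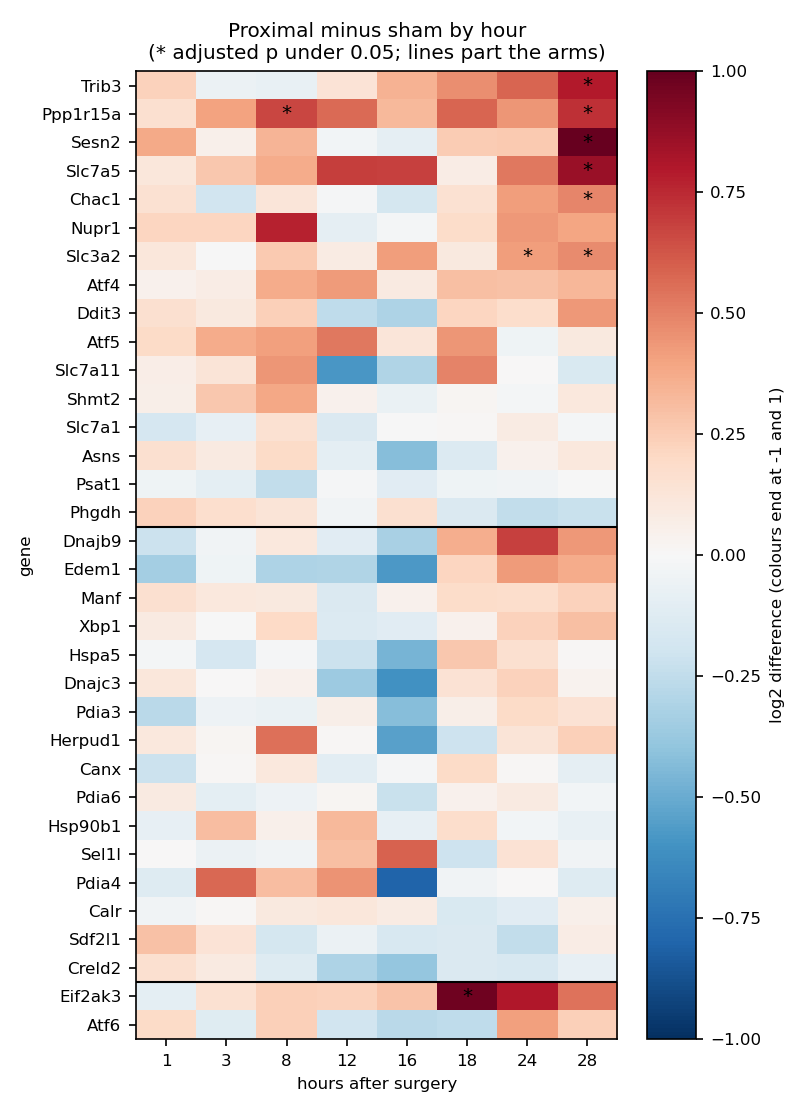
Log2 difference, proximal minus sham, at each of the 8 hours (columns) for each gene (rows, by arm); stars mark an adjusted p under 0.05. Of the 9 stars 6 lie at 28 h in the Atf4 arm, and the 16 h column, with 1 sham array, is blue in most of the chaperone arm.

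In the early window 0 of the 34 genes were called after the proximal lesion (limma, 0.130% of all genes called in either direction), and 5 had an unadjusted p under 0.05. The Atf4 arm nevertheless had 14 of 16 differences above 0, with a median of 0.17 against 0.035 in the chaperone arm and 0.036 over all genes tested. The nearest were Ppp1r15a (log2 0.41, SE 0.10, adjusted p = 0.0606) and Atf5 (0.32, SE 0.09, adjusted p = 0.0788). At 8 h the arrays did not overlap, with proximal higher, in 11 of the 34 genes, 9 of them of the Atf4 arm, as in 19.0% of all genes. Nupr1 had log2 intensities of 9.29, 9.40 and 9.37 in proximal 8 h arrays, against 8.65, 8.34 and 8.76 in sham 8 h arrays (0.77, adjusted p = 0.153). Atf4 had 11.94, 11.91 and 11.84, against 11.46, 11.57 and 11.56 in sham 8 h arrays (0.37, adjusted p = 0.165). With technical set as a block Ppp1r15a, Atf5 and Shmt2 were called in the early window, where 4.79% of all genes were called in either direction. Without sham 1 h a 3 genes were called, and the share of all genes was not taken for that fit.

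The difference between proximal and sham was larger in the late than in the early window for Eif2ak3 (0.67, SE 0.18, adjusted p = 0.0123), Trib3 (0.58, SE 0.16, adjusted p = 0.0112), Dnajb9 (0.54, SE 0.17, adjusted p = 0.0405) and Chac1 (0.32, SE 0.10, adjusted p = 0.0347). These were 4 of 34, with 0 smaller, where 3.03% of all genes were larger and 5.64% smaller. When each of the 36 arrays was left out in turn, the calls of Eif2ak3 and Trib3 were never lost, that of Chac1 was lost 16 times and that of Dnajb9 19 times. With technical set as a block Edem1 was also larger (0.57, adjusted p = 0.000659) and Phgdh smaller (-0.38, adjusted p = 0.0193). In that fit 7.04% of all genes were larger and 1680 of 12276 were smaller. For Ppp1r15a (0.17, adjusted p = 0.558) and Atf4 (0.15, adjusted p = 0.497) the windows did not differ beyond their error. At 16 h, with 2 proximal arrays and 1 sham array, 13 of the 16 chaperone arm differences were below 0 with a median of -0.27, where the median of all genes was -0.15 and 0 of the 34 were called. The proximal and sham arrays of that hour lay in different mixtures of technical sets.

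Change over time was read between 24 and 28 h together and 1 h, because these arrays lay in 1 technical set for each lesion (set A for distal, after 1 distal 1 h array was left out, and set C for proximal and sham). This comparison was chosen after the data were seen. After sham 0 of the 34 genes were called (limma, 2.61% of all genes), and 4 had an unadjusted p under 0.05. After the distal lesion 6 were higher and 0 lower (11.9% of all genes higher and 4.52% lower). After the proximal lesion 7 were higher and 4 lower (11.5% of all genes higher and 13.0% lower), so the number of proximal falls was near that of all genes. Over the longer windows, in which all but 2 distal arrays lay in set A while proximal and sham arrays lay in several sets, 9 genes were higher and 1 lower after the distal lesion, 20 and 1 after the proximal lesion and 17 and 2 after sham, where 15.4%, 26.3% and 35.4% of all genes were higher and 9.87%, 7.33% and 4.94% lower. A limma fit that blocked on technical set, possible here for the distal lesion, called 10 genes higher, Atf4 now among them (0.17, adjusted p = 0.0113). It called 3 genes lower, Nupr1 (-0.32), Pdia3 (-0.32) and Sel1l (-0.35). In that fit 24.1% of all genes were higher and 1663 of 12276 were lower. The sham median over all genes was 0.15 in these windows, and sham rises and technical sets cannot be told apart. Over the same windows the distal rise differed from the sham rise in 4 genes upward and 5 downward, where 7.21% of all genes were larger, 22.7% smaller and the median was -0.11, and from the proximal rise in 3 upward and 8 downward, where 6.39% were larger and 15.1% smaller.

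The 6 genes that rose after the distal lesion were 5 of the Atf4 arm and Eif2ak3. Eif2ak3 had log2 intensities of 9.73, 9.75 and 9.76 at 24 h and 9.62, 9.76 and 9.53 at 28 h, against 8.91, 8.54 and 8.54 at 1 h in distal arrays of set A, a 2.04-fold rise (log2 1.03, SE 0.18, adjusted p = 2.98e-05). Slc3a2 had 11.70, 11.65 and 11.68 at 24 h and 11.55, 11.71 and 11.68 at 28 h, against 10.88, 11.06 and 11.05 at 1 h, a 1.59-fold rise (log2 0.67, SE 0.09, adjusted p = 1.41e-07). In both genes the late and 1 h arrays were far apart. Trib3 had 6.37, 6.58 and 6.58 at 24 h and 7.32, 6.65 and 7.18 at 28 h, against 5.93, 6.37 and 5.99 at 1 h (log2 0.69, SE 0.16, adjusted p = 0.00213), so 24 h a lay level with 1 h b. Ppp1r15a rose by 0.71 (SE 0.14), Atf5 by 0.40 (SE 0.13) and Chac1 by 0.29 (SE 0.11).

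After the proximal lesion the 7 rises were Slc7a5 (log2 0.95, SE 0.22), Eif2ak3 (0.79, SE 0.18), Dnajb9 (0.69, SE 0.17), Ppp1r15a (0.55, SE 0.14), Atf4 (0.47, SE 0.12), Chac1 (0.38, SE 0.11) and Canx (0.25, SE 0.10). For Canx only proximal 1 h a, at 11.70, lay below the 24 and 28 h arrays (12.36 to 12.66). Proximal 1 h b and c, at 12.54 and 12.40, lay among them. Single arrays were not left out in this comparison. Eif2ak3, Ppp1r15a and Chac1 were called after both lesions. The 4 falls were Atf6 (-1.33, SE 0.46), Phgdh (-0.68, SE 0.13), Sdf2l1 (-0.29, SE 0.11), a folding factor gene, and Pdia6 (-0.26, SE 0.10). Atf6 differed by -1.46 after sham without a call. Its 1 h arrays were split, with 8.04, 10.28 and 10.30 in proximal and 7.93, 10.06 and 10.06 in sham arrays. Proximal 1 h a thus lay level with the proximal 24 and 28 h arrays (8.04 to 8.37). The other, dimmer Atf6 probe set differed by -0.11 (SE 0.12) between the late and early proximal windows.

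**Figure D4:**
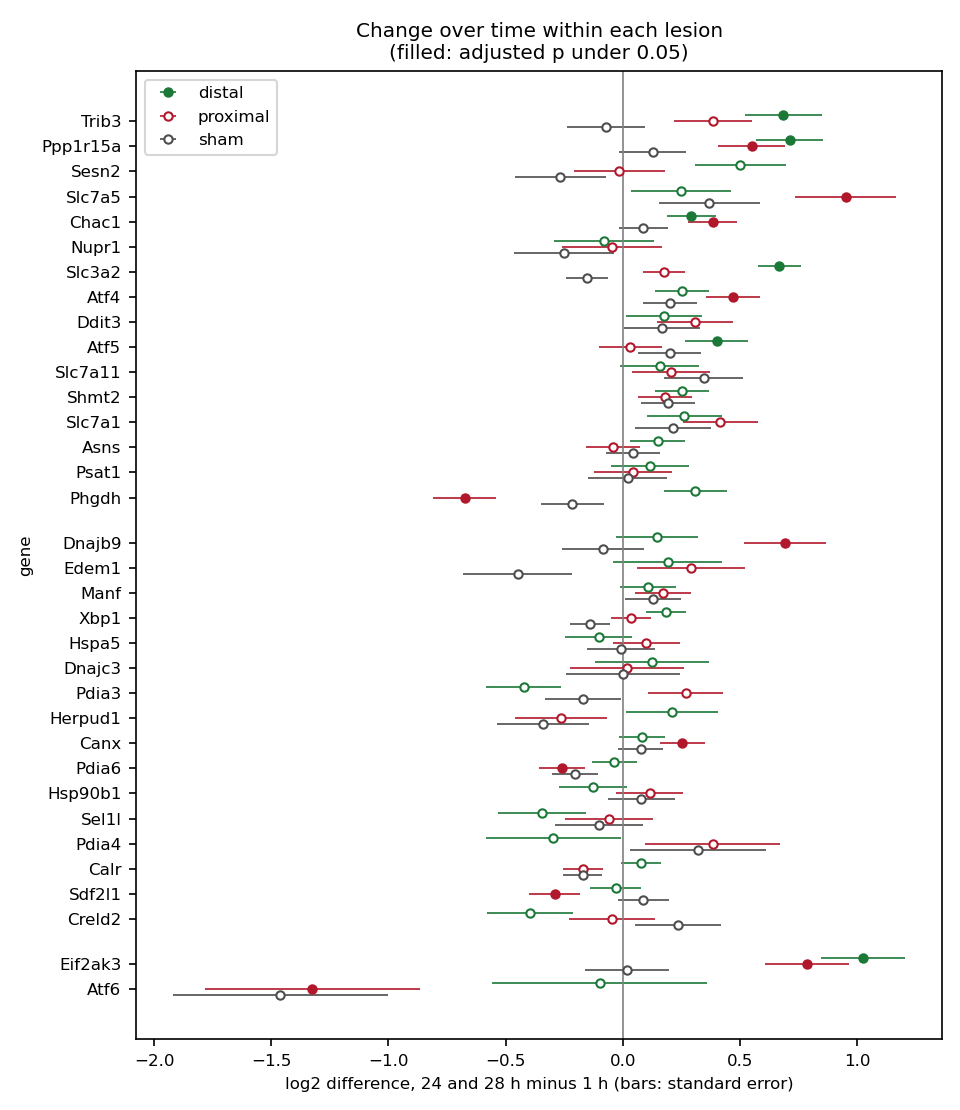
Log2 difference, 24 and 28 h minus 1 h, within distal, proximal and sham arrays for each gene, with standard errors; filled points had an adjusted p under 0.05. Filled points of the distal lesion lie in the Atf4 arm and at Eif2ak3, and no sham point is filled.

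Tests of the difference between these rises separated few genes. The distal rise exceeded the sham rise for Eif2ak3 (1.01, SE 0.26, adjusted p = 0.00982), Slc3a2 (0.82, SE 0.13, adjusted p = 1.15e-05) and Trib3 (0.76, SE 0.23, adjusted p = 0.0393), which were 3 of 34 with 0 smaller, where 4.68% of all genes were larger and 1.22% smaller. The distal rise exceeded the proximal rise for Phgdh (0.99, SE 0.19, adjusted p = 0.00108) and Slc3a2 (0.49, SE 0.13, adjusted p = 0.0106) and fell short of it for Pdia3 (-0.69, SE 0.23, adjusted p = 0.0392), where 7.86% of all genes were larger, 2.98% smaller and the median of all genes was 0.11. In neither direction was the called share of the 34 genes above that of all genes in this distal minus proximal comparison. Phgdh had log2 intensities of 10.48, 10.58 and 10.62 in distal 1 h arrays of set A and between 10.77 and 10.98 at 24 and 28 h. In proximal arrays Phgdh fell, from 11.23, 10.97 and 10.79 at 1 h to between 9.81 and 10.56 at 24 and 28 h. Pdia3 was 10.92 in proximal 1 h a, against 11.75 and 11.78 in 1 h b and c and 11.51 to 11.88 at 24 and 28 h. Its other, dimmer probe set gave a distal minus proximal rise of -0.30 (SE 0.16) over the windows. The proximal rise exceeded the sham rise in 0 of the 34 genes (limma, 1.25% of all genes larger), and 7 had an unadjusted p under 0.05. The largest of these proximal differences were those of Dnajb9 (0.78, adjusted p = 0.11) and Eif2ak3 (0.77, adjusted p = 0.134). Distal and sham arrays of these comparisons lay in different sets, and an unlike response of the sets to time was not tested.

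**Figure D5:**
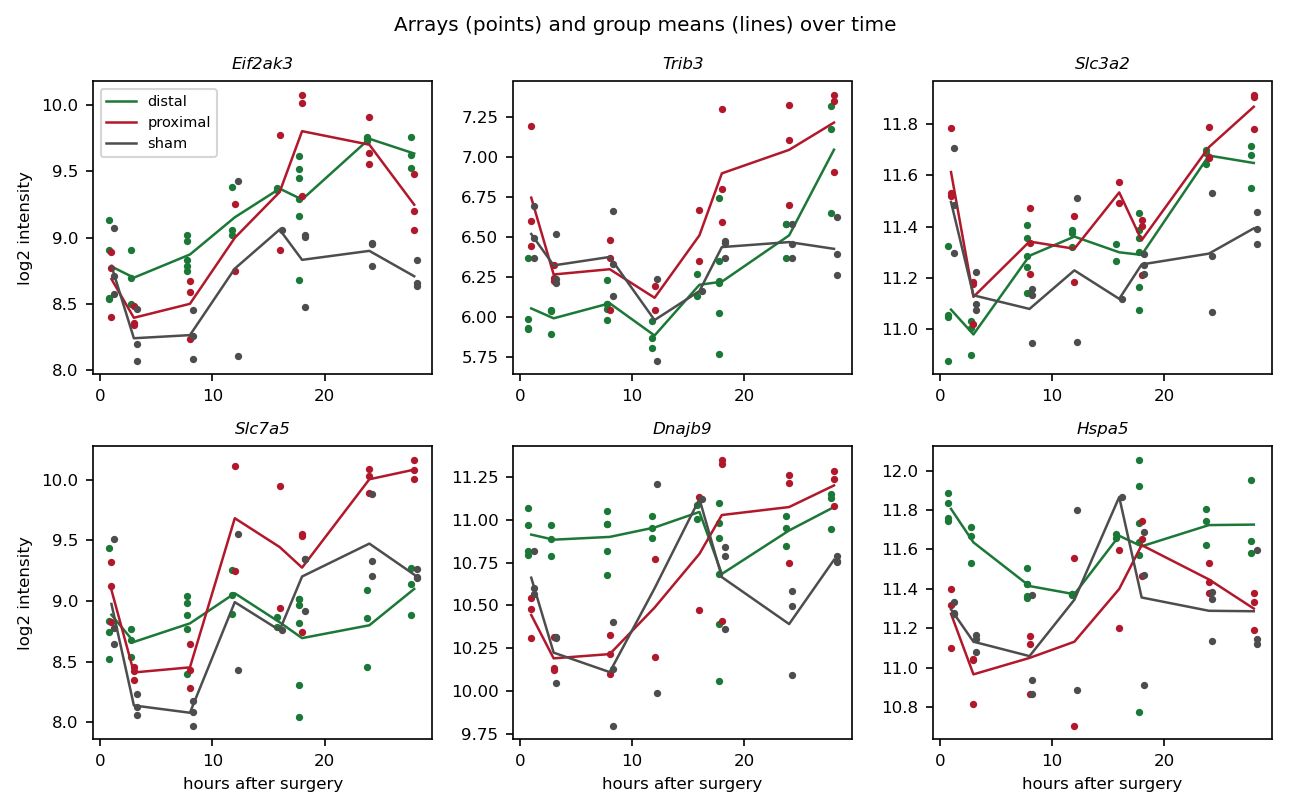
Log2 intensity of 6 genes in every distal, proximal and sham array (points) against hours after surgery, with group means (lines); the vertical axes differ between genes. Eif2ak3 is higher at 24 and 28 h than at 1 h after both lesions, and Slc7a5 is higher in proximal than in distal and sham arrays at 24 and 28 h on average.

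Levels in distal and sham arrays differed for most genes of the array, and this held for the 34 genes too. In the late window 18 of 34 were higher and 3 lower after the distal lesion, where 32.3% of all genes were higher and 29.5% lower. Of the Atf4 arm 9 were higher and 2 lower (Slc7a5 and Shmt2), and of the chaperone arm 7 were higher and 1 lower (Sel1l). Manf had log2 intensities of 9.92, 10.77 and 10.91 (lowest, median, highest) in late distal arrays, against 9.73, 10.11 and 10.47 in late sham arrays (difference 0.67, SE 0.09). The distal array at 9.92, below all other late distal arrays, was 18 h do, which lay in set D with sham arrays. For these late levels the distal lesion and set A cannot be told apart. At 18 h, where 1 distal array shared a set with sham, 1 of 34 was called, Sel1l (-0.72, SE 0.22, adjusted p = 0.0219, with 7.27% of all genes lower), and 0 were called with technical set as a block (limma).

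Genes of the same pathways that are not among the 34 were read from lists chosen with earlier results of these data known. For the late proximal counts that follow, 5.35% of all genes were higher and 4.36% lower. Of 24 other Atf4 targets and amino acid genes 5 were higher and 0 lower in late proximal arrays. They included Aldh1l2, a mitochondrial folate enzyme (log2 intensity 7.62 in proximal and 6.97 in sham arrays on average, difference 0.65, SE 0.11), Cth, which makes cysteine (0.65, SE 0.13), the translation repressor gene Eif4ebp1 (0.50, SE 0.10) and the antioxidant regulator gene Nfe2l2 (0.43, SE 0.09). Aminoacyl-tRNA synthetases had 1 of 19 higher, Tars1 (0.43, SE 0.11), which was near the share of all genes. Other folding and translocation genes of the reticulum had 0 of 43 higher and 1 lower, the oxidase gene Ero1a (-0.25, SE 0.07), and other degradation genes had 0 of 17 called, with 4 and 2 genes at an unadjusted p under 0.05. Among 21 other sensors and regulators 4 were higher, Casp12 (0.56, SE 0.10), Nfe2l2, the double-stranded RNA kinase gene Eif2ak2 (0.39, SE 0.11) and Creb3 (0.30, SE 0.09). Among the called genes with the smallest p, the distal rise within sets exceeded the sham rise for 3 of the 24 other Atf4 targets, Eif4ebp1 (0.84, SE 0.21), Aldh1l2 (0.76, SE 0.23) and the folate enzyme gene Mthfd2 (0.63, SE 0.19), and for 2 of 19 synthetases, Tars1 (0.75, SE 0.21) and Cars1 (0.51, SE 0.15), where 4.68% of all genes were larger. It also did so for 2 of the 21 other sensors and regulators, the cell death gene Bcl2l11 (0.73, SE 0.20) and Tmbim6 (0.43, SE 0.12), and for 1 of 43 folding and translocation genes, Rpn2 (0.52, SE 0.14). None of the 17 other degradation genes was called, and 1 had an unadjusted p under 0.05 (limma). Over the windows, which mix technical sets, the distal rise was larger than the sham rise in 7.21% of all genes and smaller in 22.7%. Of the called genes with the smallest p there, the larger were Vldlr (0.60), Aldh1l2 (0.67), Farsb (0.19), Hspa13 (1.81) and Casp12 (0.78). The smaller, from -0.73 to -0.39, were Ddit4, Jdp2, Aars1, Erp44, Ganab, Mogs, Nploc4, Man1b1, Syvn1, Ube2j1, Atf6b, Gcn1 and Ppp1r15b.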

How the data were processed

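Each probe set had a log2 intensity that the authors had computed with RMA before they deposited it, per the submitters' processing notes; the version, and whether all 72 arrays were normalized together, are not given in the sources used here. RNA came from a Qiagen kit and was labelled with biotin, per the labels. Of 31099 probe sets, 57 controls were left out and 20826 carried 1 gene symbol. Each of 14217 genes was represented by its brightest probe set, and 12276 whose mean reached the 25th percentile (5.46 log2) were tested.

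limma 3.58.1 in R 4.3.3 fitted 1 mean for each of 24 groups (48 residual degrees of freedom) with eBayes and a trend; tests were two-sided, and calls had an adjusted p under 0.05 within a comparison. Windows weighted their hours equally. A group of 1 array was assumed to vary like the others. The code was tested on simulated data. All members were named, and of each other pathway list the 4 called genes with the smallest p; the same rule was applied to the within-set rises after seeing the data. Members and lists were chosen with earlier results of these data known. Locations and promoters came from RefSeq (GRCr8), with members matched by Entrez identifier. The labels do not say what array letters mark. Deviations of proximal and sham arrays with the same letter correlated over 0.1 in every pair at 1, 12 and 18 h only.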

Additional observations from a re-analysis of the deposited data

Results flagged for a closer look

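In 102 checks of groups of 4 to 6 distal arrays, 1 array stood far from its group 14 times, and chance does so in about 1 of 20 groups. Of the 14, 12 concerned distal 18 h do, the only distal array of that hour outside set A, and these genes are not independent of each other. In log2 intensity it was low for Ddit3 (7.93, the other distal 18 h arrays 8.99 to 9.33), Asns (9.56), Slc7a1 (9.75), Psat1 (9.06), Phgdh (9.87), Pdia6 (11.14), Dnajc3 (6.92, others 8.40 to 8.93), Creld2 (7.76), Manf (9.92), Herpud1 (7.81) and Edem1 (8.37), and high for Sel1l (8.95, others 7.45 to 7.86). The others were Trib3 in distal 1 h b (6.37, others 5.93 to 5.99) and Hsp90b1 in distal 1 h do (11.53, others 12.06 to 12.12).

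Lesions differed in their change over time by the interaction test in 30 cases, in which some genes were counted in several comparisons. For proximal minus sham, the late window exceeded the early one for Trib3 (0.58), Chac1 (0.32), Dnajb9 (0.54) and Eif2ak3 (0.67). Of all genes tested 3.03% were larger and 5.64% smaller. Over the windows, the distal rise minus the sham rise was 0.51 for Trib3, 0.35 for Slc3a2, 0.65 for Sesn2 and 1.29 for Atf6, and -0.82 for Slc7a5, -0.50 for Shmt2, -0.97 for Pdia4, -0.55 for Creld2 and -0.54 for Herpud1. The distal rise minus the proximal rise was 0.58 for Phgdh, 0.23 for Calr and 1.25 for Atf6, and -0.37 for Atf4, -0.47 for Chac1, -0.40 for Slc7a1, -1.06 for Slc7a5, -0.30 for Shmt2, -0.49 for Pdia3, -0.82 for Dnajb9 and -0.64 for Edem1. These window values mix technical sets. Of all genes, 7.21% were larger and 22.7% smaller in the distal minus sham rise, and 6.39% and 15.1% in the distal minus proximal rise. Downward calls in the distal minus sham rise were thus no more frequent than over all genes. Within sets, the distal rise minus the sham rise was 0.76 for Trib3, 0.82 for Slc3a2 and 1.01 for Eif2ak3. There the distal rise minus the proximal rise was 0.49 for Slc3a2, 0.99 for Phgdh and -0.69 for Pdia3. Of all genes, 4.68% were larger and 1.22% smaller in the former, and 7.86% and 2.98% in the latter.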

How the results depend on the processing

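Counts are of the 34 genes called, and causes of the moves were not tested. The share of all genes called was not taken for array weights, the other filter, quantile normalization, the replicate block or only the arrays compared. Nor was it taken for left-out arrays. A count that moved under these settings is therefore not a result about the 34 genes in particular. Array weights called more: 15 in late and 7 in early proximal arrays against sham, 51 over the single hours, 21 in the distal late against early window, 11 in the late minus early difference, 21 and 23 in the distal rise minus the sham and proximal rise. For the early window, the filter at the 50th percentile and another quantile normalization called 1 each, technical set as block 3, the replicate block 2, only the arrays compared 2, and leaving out single arrays 0 to 3. Over the single hours these were 15 (quantile), 23 (set), 24 (replicate block, 18 higher and 6 lower), 16 (only the arrays compared) and 5 to 13 (single arrays). With technical set as block 4.79% of all genes were called in the early window. At 8, 18, 24 and 28 h it was 7.67%, 6.35%, 3.34% and 8.95%, and at most 0.293% at the other hours. For the distal rise minus the sham rise, quantile normalization called 14 and the replicate block 15. Leaving out single arrays gave 8 to 10 (late proximal), 2 to 5 (late minus early; 2 without proximal 18 h a or b, 28 h b, 3 h c or 8 h c, or sham 3 h b or 8 h c) and 6 to 14 (distal minus proximal rise; 6 without proximal 18 h a or b, 7 without proximal 1 h b or c, 3 h b or 8 h a). Without proximal 28 h b and c, 5 were called. Late proximal Slc7a5 was lost without proximal 18 h a or b, sham 18 h c or sham 24 h a, and Sesn2 with only the arrays compared. The replicate block called 13 in late proximal arrays. Deviations of same-lettered proximal and sham arrays had negative correlations in every pair at 3 and 8 h. They were 0.28, -0.31 and 0.58 at 24 h, and 0.30, 0.16 and 0.087 at 28 h, so pairing at those hours is unclear.

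Within sets (chosen after seeing the data) 6 distal, 11 proximal and 0 sham genes changed over time, and 0, 3 and 3 of the proximal minus sham, distal minus sham and distal minus proximal differences were called. The Atf4 arm median of the last 2 became 0.14 and 0.072, against -0.17 and -0.24. Signs turned there for Creld2 (proximal, -0.047), Herpud1 (sham, -0.34; distal minus sham, 0.55), Phgdh (sham, -0.22) and Shmt2 (distal minus sham, 0.058; distal minus proximal, 0.071). With technical set as block, distal against sham at 18 h called 0; this block could not be fitted for late distal levels, for proximal and sham changes over the windows or for the distal rise differences, nor a letter block for change over time in 1 lesion. Other probe sets turned the sign of Sesn2 (proximal late, -0.0062; distal late, -0.22), Atf6 (distal late, -0.44; distal minus sham, -0.017; distal minus proximal, -0.19) and Slc7a1 (proximal, -0.30 and -0.032; sham, -0.14 and -0.14; distal minus proximal, 0.36).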
